A study of Saccharomyces cerevisiae with 7 samples.

Results

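The galactose use genes of Saccharomyces cerevisiae and their regulators were described in chemostat cultures fed galacturonic acid, galactose or neither. The 10 members were chosen by name: the permease gene GAL2, the pathway genes GAL1, GAL7 and GAL10, the regulators GAL3, GAL80 and GAL4, and PGM1, PGM2 and UGP1, which link the pathway to glycolysis and to UDP-glucose. They are 10 of 5656 genes with a probe set of their own, and all 10 are among the 5220 tested, those with an intensity above 12 on at least 2 arrays. Each has 1 single-gene probe set, so no choice between probe sets entered their values.

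The series concerns growth inhibition of yeast by galacturonic acid, the sugar acid from which pectin is largely built, and the part of hexose transporters in it. All 7 arrays came from CEN.PK113-7D, a haploid laboratory strain, grown with air under glucose limitation with 7.5 g/l glucose in the feed, at pH 3.5 and 30 °C and a dilution rate of 0.1 per h. In 2 cultures the medium also held 10 g/l galacturonic acid, in 2 others it also held 0.23 g/l galactose, and 3 control cultures had glucose alone. Codes in the sample titles begin with EH for the control and galacturonic acid arrays and with MA for both galactose arrays. Whatever these codes stand for cannot be told apart from galactose. Galacturonic acid is the acid form of galactose, oxidised at its last carbon, and the doses of the compounds differ. No allele distinguished the groups, and glucose in the feed, which all groups shared, can repress galactose genes. One label field of the galactose arrays names galacturonic acid at that dose, while 3 others name galactose, which was used here.

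In yeast, galactose enters through the permease Gal2. Galactokinase (Gal1) phosphorylates it, the uridylyltransferase Gal7 exchanges it with UDP-glucose, and the epimerase Gal10 turns UDP-galactose back into UDP-glucose, a route known as the Leloir pathway. The activator Gal4 drives these genes, Gal80 holds Gal4 inactive, and Gal3, a galactose sensor related to Gal1, binds Gal80 when galactose is present and frees Gal4. Glucose represses the system through Mig1 and related repressors.

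Values are linear array intensities without a unit, and the number of arrays limits their precision. Before tests, values under 12 were raised to a floor of 12, a setting chosen here because detection calls were not used. The trimmed mean was 150.1 on every array. Arrays of the same group spread by a median of 0.17 log2 units (SD) for galacturonic acid, 0.52 for galactose and 0.30 for control. RNA quality differed with group. The 3'/5' intensity ratio of the ACT1 control probe sets was 1.34 and 1.33 on the galacturonic acid arrays, 19.8 and 306 on the galactose arrays, and 1.07 to 1.23 on the control arrays. That of SPT15 was 2.04 and 2.28 with galacturonic acid, 2.76 and 124 with galactose, and 1.66 to 2.75 in control. On galactose array 2 the ACT1 5' probe set read 10.5 and that of SPT15 read 4.1. Both lie under the floor, which leaves the sizes of those ratios uncertain. Where a probe set lies along its transcript was not used here, and the part of RNA quality in the galactose results was not tested. Mating type markers also moved with group, and their part in the results was not tested. The 4 markers of MATa cells (MFA1, MFA2, STE2, BAR1), the mating type of CEN.PK113-7D, summed to 5695.4 and 7210.7 with galacturonic acid, 3723.6 and 4066.9 with galactose, and 1366.8 to 2108.5 in control. All 4 lay above control with galacturonic acid, by 3.32-fold to 6.27-fold, and MFA1 and MFA2 passed (limma adjusted p of 0.0436 and 0.0175). MFA2 alone passed with galactose (limma adjusted p = 0.0197). MFA1 and MFA2 lay above all control arrays there, while STE2 (335.2 and 36.9) and BAR1 (352.5 and 69.1) overlapped control. The 3 MATalpha markers summed to 925.1 and 991.5 with galacturonic acid, 29.8 and 197.1 with galactose, and 43.7 to 81.8 in control. MF(ALPHA)1 passed with galacturonic acid against control (limma adjusted p = 0.0365) and against galactose (adjusted p = 0.0293). STE3 read 72.5 and 73.8 with galacturonic acid, 51.4 and 15.6 with galactose, and 18.6 to 35.0 in control and did not pass, and MF(ALPHA)2 stayed below the floor on all 7 arrays.

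**Figure D1:**
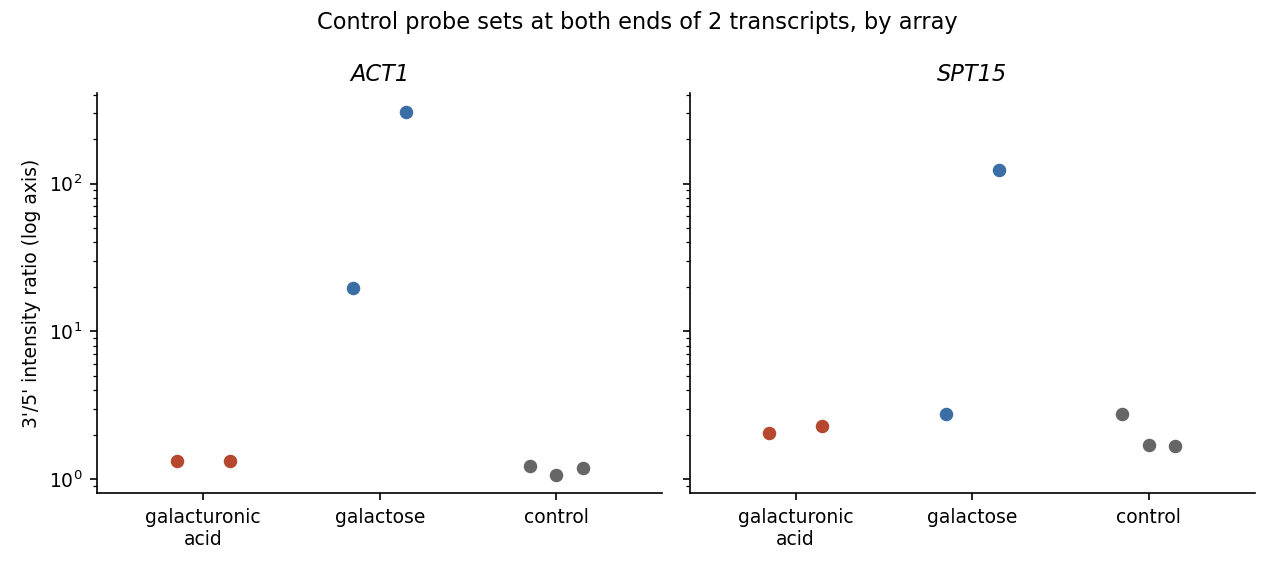
Ratio of 3' to 5' intensity (log axis) of the control probe sets for ACT1 and SPT15, with 1 point per array, by group. The ACT1 ratio is 19.8 and 306 on the galactose arrays and at most 1.34 on the other 5 arrays.

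The permease gene GAL2 (YLR081W) lay below the floor in control and far above it in both other groups. It read 263.9 and 299.5 on the galacturonic acid arrays, 1126.6 and 1069.6 on the galactose arrays, and 8.6, 7.0 and 7.9 on the control arrays. No group overlapped another, and the order was galactose, galacturonic acid, control. Against the floor, GAL2 was at least 23.4-fold higher with galacturonic acid than in control (limma adjusted p = 0.000489) and at least 91.5-fold higher with galactose than in control (adjusted p = 5.21e-05). Each such bound sets the mean log2 value of the brighter group against the floor. In bulk cultures, more cells that express a gene and more RNA per cell cannot be told apart.

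The 3 enzyme genes of the Leloir pathway lie side by side on chromosome II in the RefSeq annotation of assembly R64, in the order GAL7, GAL10, GAL1. All 3 were below the floor on every control array and above it on every other array. GAL1 (YBR020W, galactokinase) read 73.8 and 104.7 with galacturonic acid, 154.9 and 178.4 with galactose, and 0.5, 2.4 and 3.5 in control. GAL7 (YBR018C, the uridylyltransferase) read 124.1 and 98 with galacturonic acid, 340.3 and 286.8 with galactose, and 4.8, 4.7 and 2.7 in control. For both genes the pair of galactose arrays lay above the pair of galacturonic acid arrays. GAL10 (YBR019C, the epimerase) read 104.9 and 136.9 with galacturonic acid, 399.6 and 810.4 with galactose, and 3.8, 2.6 and 5.0 in control. Its galactose arrays differed by 1.02 log2 units, above the median absolute difference of 0.73 between these arrays over all genes tested, while those of GAL1, GAL2 and GAL7 differed by 0.20, -0.07 and -0.25 (array 2 minus array 1).

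With galactose, GAL10 was at least 47.4-fold, GAL7 at least 26.0-fold and GAL1 at least 13.9-fold higher than in control, with limma adjusted p of 0.000537, 0.000508 and 0.000606. With galacturonic acid the bounds were at least 9.99-fold for GAL10, 9.19-fold for GAL7 and 7.33-fold for GAL1, with adjusted p of 0.00721, 0.00437 and 0.00488. GAL1 and GAL3 are related in sequence. Probe sequences were not used here, so whether the probe set of one also reads the other was not tested.

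**Figure D2:**
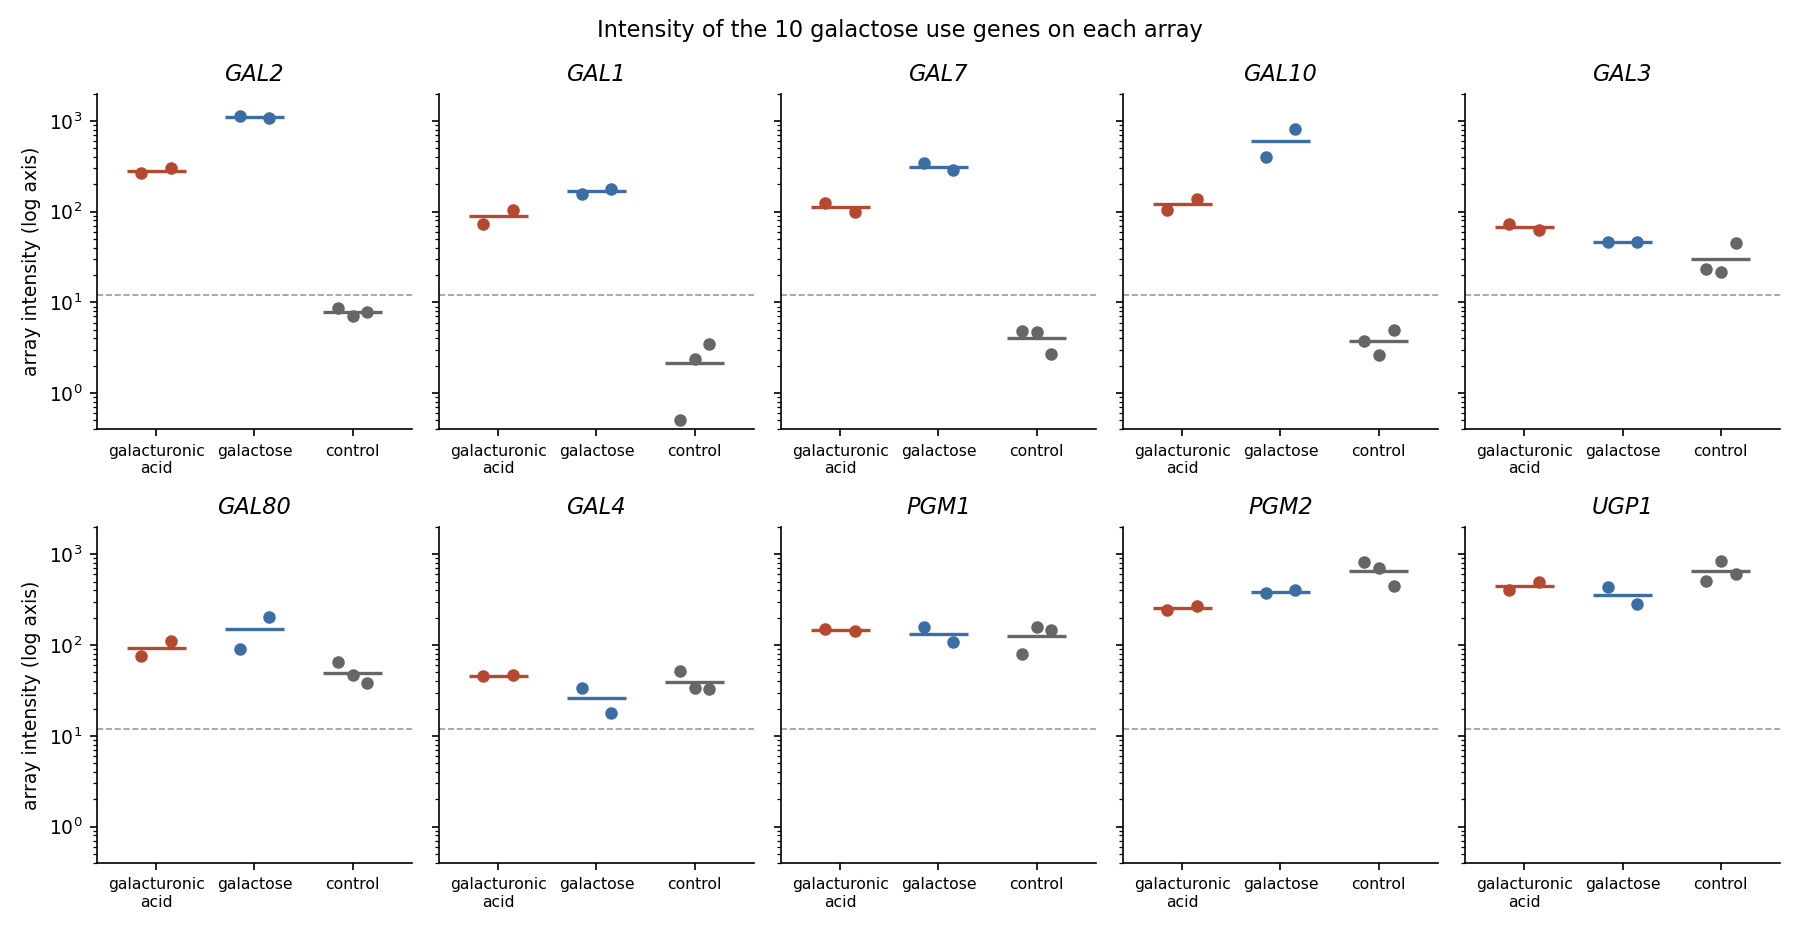
Intensity (log axis) of each of the 10 genes, with 1 point per array and a bar at the group mean, for galacturonic acid (2 arrays), galactose (2) and control (3). The dashed line is the floor of 12. GAL2, GAL1, GAL7 and GAL10 lie below it on all control arrays and at 73.8 or higher on the other 4 arrays, and the remaining 6 genes lie above it on every array.

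With galacturonic acid, 4 of the 10 members (GAL1, GAL2, GAL7, GAL10) rose against control and 0 fell, at a limma adjusted p under 0.05. These 4 lay below the floor on every control array, so the filter admitted them only through the supplemented arrays. With either supplement they could thus not come out lower than control. Over all genes tested, 2.32% were called, 0.881% higher and 1.44% lower. At an unadjusted p under 0.05, 5 members were higher and 1, PGM2, was lower, where 5.69% of all genes were higher and 6.78% lower. The median log2 difference was 1.08 over the 10 members, with the 4 risen genes at their bound, and -0.01 over all genes tested. On floored values GAL2 had the 3rd largest positive difference of the 5220 genes, GAL10 the 6th, GAL7 the 7th and GAL1 the 9th, and these ranks are not fixed because the 4 values are lower bounds. The count of 4 depended on the arrays fitted. It was 1 without control array 2 (GAL2), 2 without control array 3 (GAL2 and GAL7), and 0 without galacturonic acid array 1 or without array 2, where the adjusted p of GAL2 was 0.0568 and 0.0599 and the spread of the single array left was taken from the other groups. In those last fits 5 and 6 members were past an unadjusted p of 0.05.

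With galactose, the same 4 genes were the members that rose against control, and 0 fell. Over all genes tested, 9.06% were called, 4.75% higher and 4.31% lower. At an unadjusted p under 0.05, 5 members were higher and 1, UGP1, was lower, where 21.9% of all genes were higher and 12.8% lower. GAL2, GAL10, GAL7 and GAL1 had the 4 largest positive differences of all 5220 genes on floored values, with fitted log2 differences of 6.52, 5.57, 4.70 and 3.79. The next gene, PEX19, which was picked after its value was seen, stood at 2.76. The median log2 difference was 1.10 over the members, again with these 4 at their bound, and 0.22 over all genes tested. All 4 calls held without galactose array 1 and without array 2, with differences of 6.48 and 6.55 for GAL2, 6.08 and 5.06 for GAL10, 4.58 and 4.83 for GAL7, and 3.89 and 3.69 for GAL1. In each of those fits the spread of the single galactose array left was taken from the other groups. Without galactose array 1 the log2 difference was 2.08 for GAL80, -1.11 for GAL4 and -1.17 for UGP1. That fit kept galactose array 2, where the ACT1 3'/5' ratio was 306. The galacturonic acid and galactose differences share the 3 control arrays. Of the genes called over all 5220, 52.4% were higher with galactose, against 31.8% after quantile normalisation and 23.5% after scaling to the 75th percentile, which lowered the median log2 difference of all genes by 0.18.

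**Figure D3:**
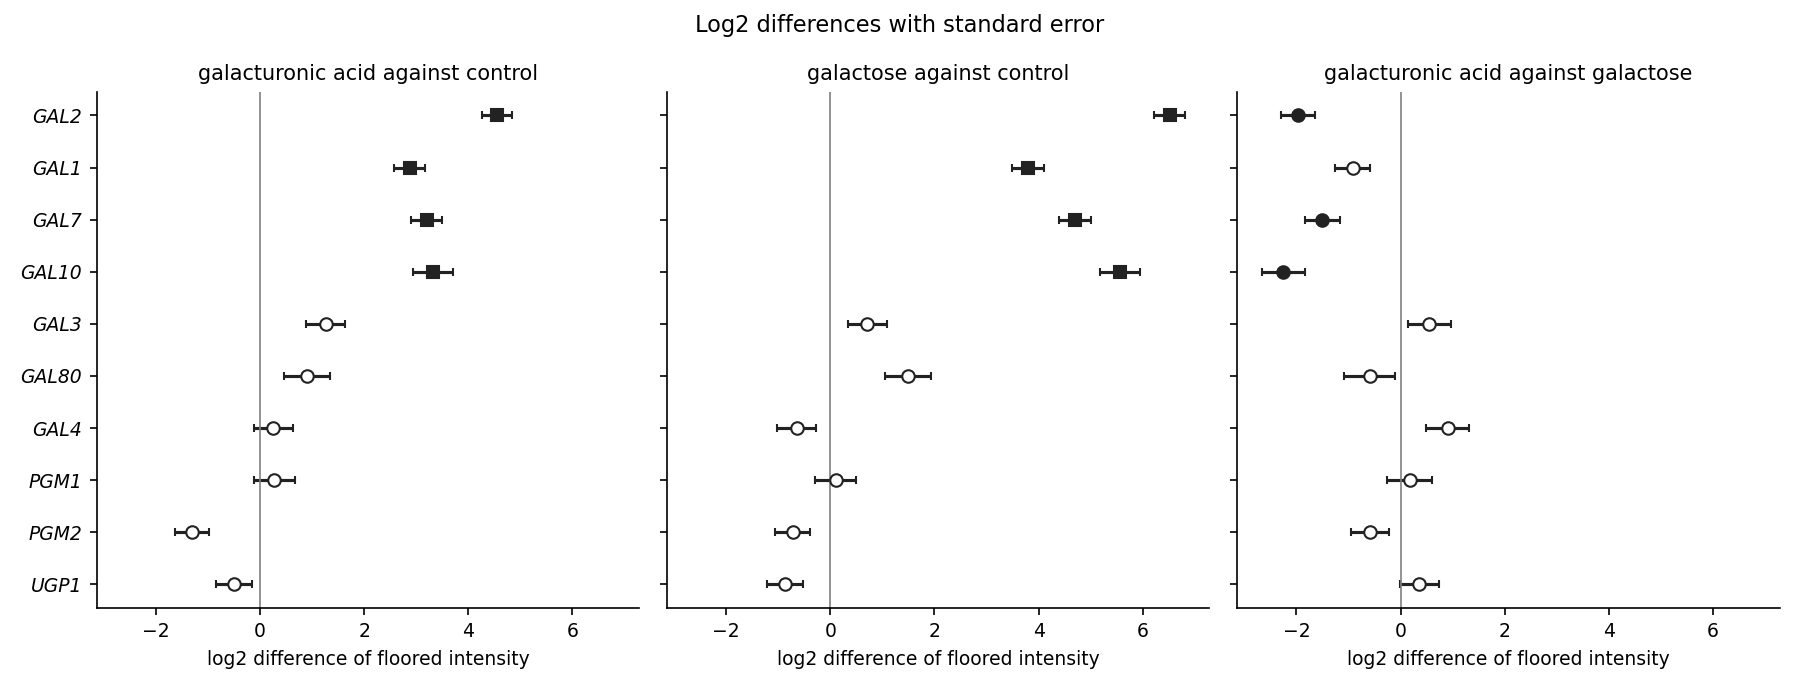
Log2 differences of floored intensity with their standard error for the 10 genes in the 3 comparisons. Filled symbols passed an adjusted p of 0.05, and squares mark lower bounds, where every control array was below the floor. GAL2, GAL1, GAL7 and GAL10 passed against control in the first 2 panels, and in the last all 4 lie below 0, where GAL2, GAL7 and GAL10 passed.

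GAL2, GAL7 and GAL10 were lower in the galacturonic acid cultures than in the galactose cultures, at doses that differ. All values of these genes in both groups lie above the floor, so the differences are measured and not bounds. The fit also holds their control values, which the floor made equal and which add no spread. The standard errors and adjusted p below therefore depend on the floor. GAL10 was 4.75-fold lower with galacturonic acid (log2 -2.25 ± 0.42 SE, limma adjusted p = 0.0198), GAL2 was 3.90-fold lower (-1.97 ± 0.32 SE, adjusted p = 0.0149) and GAL7 was 2.83-fold lower (-1.50 ± 0.33 SE, adjusted p = 0.0293). GAL1 did not pass, at -0.92 ± 0.33 (SE, adjusted p = 0.0894), although its groups did not overlap. These 3 are the members called lower, against 7.91% of all genes tested, and 13.1% of all genes were called in either direction. No member was called higher, against 5.23% of all genes, and at an unadjusted p under 0.05 the members had 0 higher and 4 lower, where 12.9% of all genes were higher and 23.5% lower. The median difference was -0.59 over the members and -0.24 over all genes tested.

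As a share of its galactose level, the mean galacturonic acid intensity was 53.6% for GAL1, 35.4% for GAL7, 25.7% for GAL2 and 20.0% for GAL10. Across all pairings of an array of each group the share ran from 41.4% to 67.6% for GAL1, 28.8% to 43.3% for GAL7, 23.4% to 28.0% for GAL2 and 12.9% to 34.3% for GAL10. The range of GAL1 lay above that of GAL2, and whether the shares differ between genes was not tested.

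These 3 calls rested on the fit across all groups, which includes the floored control values. With only the galacturonic acid and galactose arrays fitted, 0 of 5220 genes passed, 1250 at an unadjusted p under 0.05, and the adjusted p was 0.116 for GAL2, 0.158 for GAL10 and 0.162 for GAL7. None of the members passed without galacturonic acid array 1 or without array 2, where 3 and 4 were past an unadjusted p of 0.05, GAL2 and GAL10 passed without control array 1, and GAL2 alone passed without control array 2 or without control array 3. Without galactose array 1, which leaves the array with the ACT1 3'/5' ratio of 306, the log2 difference was -2.76 for GAL10 and 1.37 for GAL4. Without galactose array 2 it was -1.74 for GAL10 and 0.44 for GAL4. There too the spread of the single galactose array left was taken from the other groups. Of the genes called over all 5220, 39.8% were higher with galacturonic acid, against 58.0% after quantile normalisation and 66.4% after scaling to the 75th percentile, and GAL2, GAL7 and GAL10 passed under both.

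**Figure D4:**
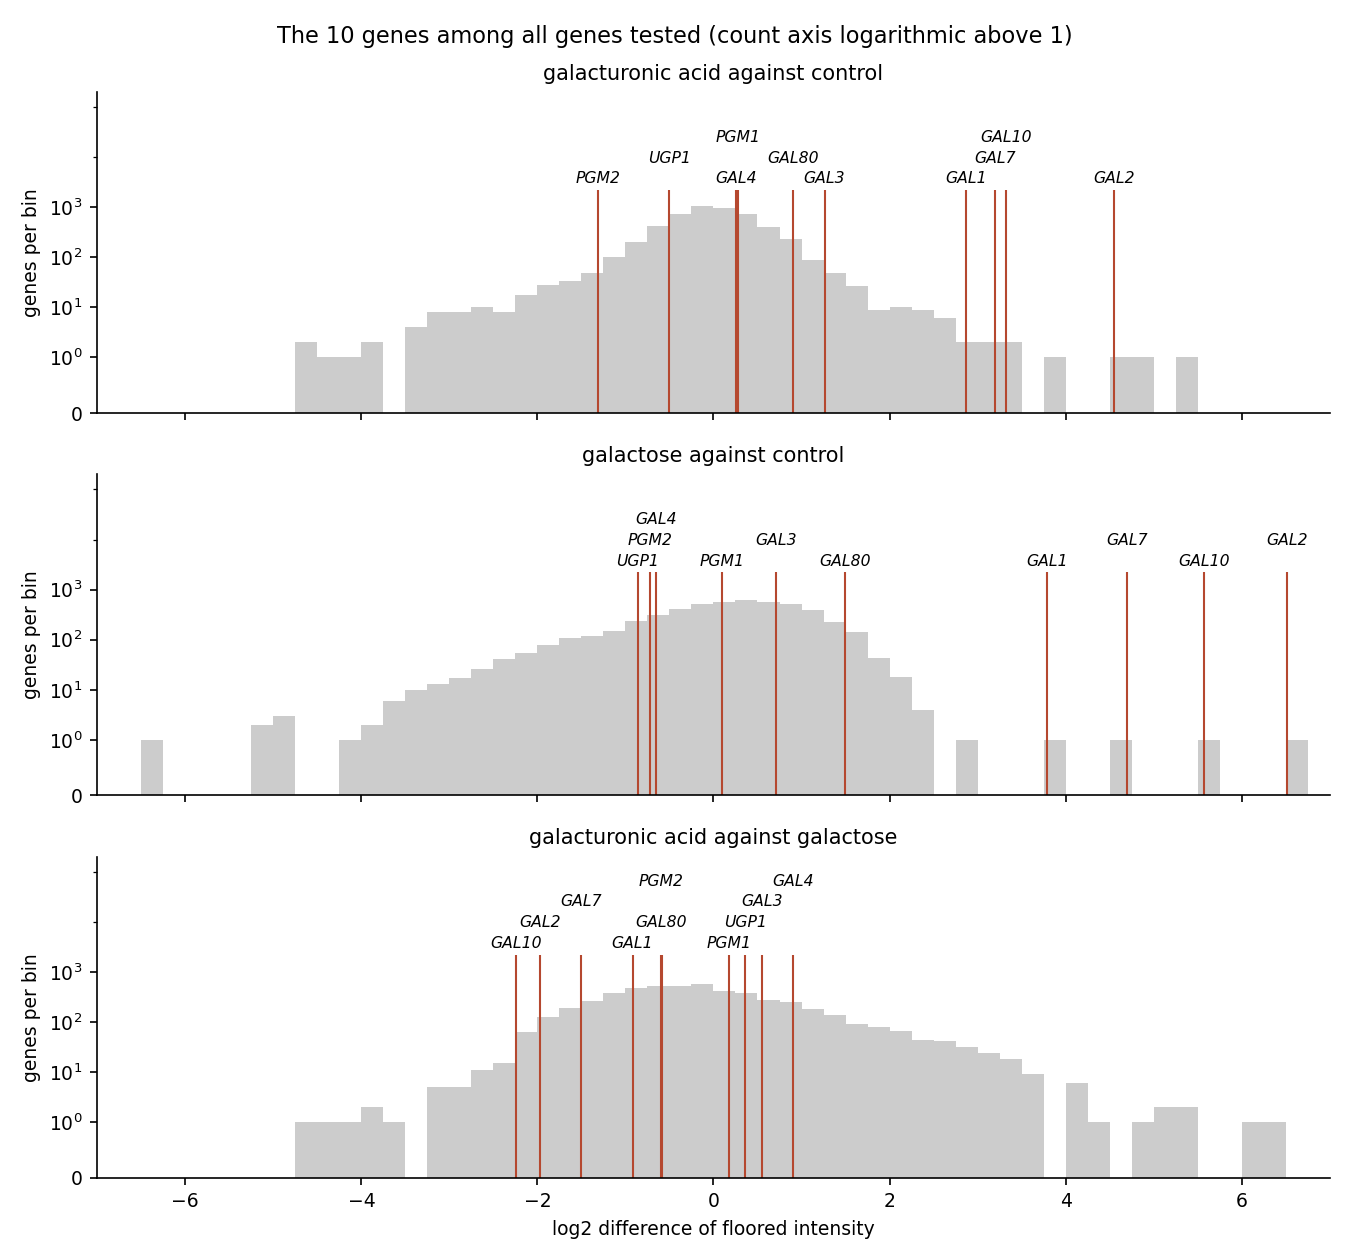
Number of genes per bin of log2 difference (count axis logarithmic above 1) for all 5220 genes tested, with the 10 members as labelled lines, in the 3 comparisons. In the galactose panel GAL1, GAL7, GAL10 and GAL2 lie to the right of all other genes, from 3.79 to 6.52.

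None of the 3 regulator genes passed in any comparison of the fit across all arrays. GAL3 (YDR009W), the galactose sensor, read 73.3 and 63.0 with galacturonic acid, 46.0 and 46.8 with galactose, and 23.3, 21.8 and 44.8 in control. Its groups did not overlap and its order differed from that of the pathway genes, with galacturonic acid highest, although the highest control array, 44.8, stood close to the galactose arrays. The log2 difference from control was 1.26 ± 0.38 (SE, limma adjusted p = 0.181) with galacturonic acid and 0.71 ± 0.38 (adjusted p = 0.213) with galactose. Between galacturonic acid and galactose it was 0.55 ± 0.41 (adjusted p = 0.359).

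GAL80 (YML051W), the inhibitor of Gal4, read 75.5 and 109.6 with galacturonic acid, 91.5 and 206.3 with galactose, and 64.6, 46.6 and 38.5 in control. Both supplemented groups lay above control and overlapped each other. The log2 difference from control was 0.90 ± 0.44 (SE, adjusted p = 0.469) with galacturonic acid and 1.49 ± 0.44 (adjusted p = 0.0668) with galactose. The galactose arrays differed by 1.17 log2 units, and the galactose difference was 2.08 without galactose array 1 and 0.91 without array 2.

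GAL4 (YPL248C), the activator, read 45.2 and 46.9 with galacturonic acid, 33.9 and 17.8 with galactose, and 51.9, 33.7 and 32.6 in control. The galacturonic acid arrays lay within the control range, and the galactose arrays overlapped it. The log2 difference was 0.26 ± 0.37 (SE, adjusted p = 0.861) with galacturonic acid against control and -0.65 ± 0.37 (adjusted p = 0.246) with galactose against control. Between galacturonic acid and galactose it was 0.91 ± 0.41 (adjusted p = 0.147), with groups that did not overlap. Without galactose array 1 the galactose difference from control was -1.11, and without array 2 it was -0.18.

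None of the genes that tie galactose to central metabolism passed in any comparison of that fit. PGM2 (YMR105C), the major phosphoglucomutase, which interconverts glucose 1-phosphate and glucose 6-phosphate, read 244.2 and 272.8 with galacturonic acid, 370.8 and 407.0 with galactose, and 813.6, 712.0 and 451.5 in control. Control was highest and galacturonic acid lowest, and no group overlapped another. The log2 difference from control was -1.31 ± 0.33 (SE, limma adjusted p = 0.111) with galacturonic acid and -0.72 ± 0.33 (adjusted p = 0.160) with galactose, and it was -0.59 ± 0.36 (adjusted p = 0.267) between galacturonic acid and galactose. PGM1 (YKL127W), the minor isoform, read 152.0 and 143.7 with galacturonic acid, 158.9 and 108.1 with galactose, and 79.4, 157.8 and 145.5 in control. All its groups overlapped, and its log2 differences from control were 0.27 ± 0.39 (SE, adjusted p = 0.859) with galacturonic acid and 0.10 ± 0.39 (adjusted p = 0.877) with galactose. The sign of the PGM1 difference between galactose and control turned under both other scalings. As for GAL1 and GAL3, whether the probe sets of these isoforms also read each other was not tested.

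UGP1 (YKL035W), which makes UDP-glucose from glucose 1-phosphate, read 409.1 and 494.8 with galacturonic acid, 434.6 and 282.6 with galactose, and 506.8, 842.9 and 603.9 in control. Both supplemented groups overlapped each other and lay below control, where the lowest control array exceeded the highest galacturonic acid array by little. The log2 difference from control was -0.50 ± 0.34 (SE, adjusted p = 0.622) with galacturonic acid and -0.86 ± 0.34 (adjusted p = 0.119) with galactose. Between galacturonic acid and galactose it was 0.36 ± 0.38 (adjusted p = 0.516).

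Counted by overlap alone, 6 members lay above all control arrays with galacturonic acid (GAL1, GAL2, GAL3, GAL7, GAL10, GAL80) and 2 below (PGM2, UGP1), where 20% of all genes tested lay above and 21.1% below. With galactose the counts were again 6 above and 2 below, of the same genes, where 31.4% of all genes lay above and 16.4% below. Between galacturonic acid and galactose, 2 members lay above (GAL3, GAL4) and 5 below (GAL1, GAL2, GAL7, GAL10, PGM2), where 22.6% and 41.1% of all genes did.

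The known Gal4 targets outside the Leloir pathway were GCY1, FUR4, MTH1 and PCL10, and none of these 4 passed in any comparison. At an unadjusted p under 0.05, 0 passed with galacturonic acid against control, 2 were higher with galactose against control (GCY1 and PCL10) and 1 was lower with galacturonic acid against galactose (PCL10), where 21.9% and 23.5% of all genes were. The median log2 difference of the 4 genes was 0.68 with galacturonic acid and 0.96 with galactose against control, and 0.10 between galacturonic acid and galactose. GCY1, an aldo-keto reductase, read 1051.3 and 1220.0 with galacturonic acid, 1008.0 and 2407.8 with galactose, and 1043.1, 683.7 and 521.5 in control. FUR4, the uracil permease, read 53.0 and 79.0 with galacturonic acid, 106.8 and 15.6 with galactose, and 21.1, 16.7 and 29.4 in control. Their galacturonic acid arrays lay above all control arrays, while galactose overlapped control.

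MTH1, a negative regulator of glucose-induced transporter genes, read 257.4 and 260.5 with galacturonic acid, 205.2 and 123.7 with galactose, and 145.3, 123.1 and 224.5 in control, so it too lay above control with galacturonic acid alone. PCL10, a cyclin of the kinase Pho85, read 10.4 and 17.0 with galacturonic acid, 24.5 and 63.6 with galactose, and 20.8, 17.6 and 20.5 in control. It was the target that lay below control with galacturonic acid and above it with galactose. Its galacturonic acid value of 10.4 lay under the floor, and that of 17.0 was close to the lowest control value, 17.6. The log2 difference between galacturonic acid and galactose was -1.47 ± 0.43 (SE, limma adjusted p = 0.0572).

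Of 14 tested genes for regulators of glucose repression, such as the Snf1 kinase complex, Mig1, Tup1 and Cyc8, 1 was lower and 0 were higher with galacturonic acid against control. Over all genes 1.44% were lower and 0.881% higher. The median log2 difference of the list was -0.02. At an unadjusted p under 0.05, 2 were lower and 0 higher, where 6.78% and 5.69% of all genes were. NRG2, a repressor in the same pathway, read 82.3 and 109.4 with galacturonic acid, 283.4 and 186.7 with galactose, and 281.6, 463.0 and 567.3 in control. It was 4.42-fold lower with galacturonic acid than in control (limma adjusted p = 0.0341), a call lost when any control or galacturonic acid array was left out (adjusted p up to 0.462). None of these genes passed with galactose against control, where the median was -0.38 and 1 was higher at an unadjusted p under 0.05. None passed with galacturonic acid against galactose, where the median was 0.26 and 2 were higher and 2 lower at that level. The shares over all genes at that level were 21.9% higher with galactose against control, and 12.9% higher and 23.5% lower with galacturonic acid against galactose.

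Genes for coactivators that Gal4 recruits, from the tail of Mediator, SAGA and Swi/Snf, had 13 tested members. None passed with galacturonic acid against control, where 0.881% of all genes were called higher and 1.44% lower, and the median was -0.03. Also none passed at an unadjusted p under 0.05, where 5.69% of all genes were higher and 6.78% lower. SPT3, a SAGA subunit, read 32.4 and 36.8 with galacturonic acid, 75.8 and 122.9 with galactose, and 28.3, 30.0 and 29.2 in control. It was 3.31-fold higher with galactose than in control (adjusted p = 0.0229) and 2.80-fold lower with galacturonic acid than with galactose (adjusted p = 0.0342). MED2, of the Mediator tail, read 22.2 and 33.8 with galacturonic acid, 84.2 and 130.5 with galactose, and 29.9, 44.1 and 56.7 in control, and was 3.83-fold lower with galacturonic acid than with galactose (adjusted p = 0.0313). Each of these 3 calls was lost in the fit of the 2 groups compared (adjusted p of 0.0778, 0.179 and 0.162). Over all genes, 4.75% were called higher with galactose against control and 7.91% lower with galacturonic acid against galactose. With galactose against control the list median was 0.31, and at an unadjusted p under 0.05, 5 genes were higher and 2 lower, where 21.9% and 12.8% of all genes were. With galacturonic acid against galactose the median was -0.32, and 2 genes were higher and 5 lower at that level, where 12.9% and 23.5% of all genes were.

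Neighbouring steps of hexose phosphate and UDP-glucose metabolism had 12 tested genes, and 0 passed with galacturonic acid against control, where 4 were lower at an unadjusted p under 0.05 (6.78% of all genes were) and the median was -0.47. With galactose against control 2 were lower, where 4.31% of all genes were, and the median was -0.89. At an unadjusted p under 0.05, 4 were lower there, where 12.8% of all genes were. With galacturonic acid against galactose 1 was higher, where 5.23% of all genes were. At the unadjusted level 4 were higher and 2 lower in that comparison, where 12.9% and 23.5% of all genes were. PGI1, phosphoglucose isomerase, read 2054.0 and 2129.2 with galacturonic acid, 801.6 and 182.0 with galactose, and 2933.3, 1702.9 and 2063.6 in control. The galactose level was 5.70-fold below control (limma adjusted p = 0.0380). The galactose array with the lower PGI1 value had the higher 3'/5' ratios. Other genes named here went both ways between the galactose arrays. GAL4, UGP1, FUR4 and STE2 were among those that read lower on it, and GAL10, GAL80, SPT3 and MED2 among those that read higher. The part of RNA quality in these values was not tested. Galacturonic acid was 5.48-fold above galactose (adjusted p = 0.0410), with a list median of 0.59. The PGI1 log2 difference between galactose and control was -3.58 without galactose array 1 and -1.44 without array 2, and that between galacturonic acid and galactose was 3.52 and 1.38. TPS1, trehalose-6-phosphate synthase, which uses UDP-glucose, read 373.4 and 467.2 with galacturonic acid, 326.1 and 357.7 with galactose, and 1037.9, 768.8 and 783.5 in control. It was 2.50-fold lower with galactose than in control (adjusted p = 0.0364). These 3 calls were lost in the fit of the 2 groups compared, and when any array other than galactose array 1 was left out.

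The genes whose pattern over the 7 arrays was most like the mean of GAL1, GAL2, GAL7 and GAL10 depended on the scaling. Among 1702 genes outside the members that spanned at least 2 log2 units, the 6 with the highest Pearson r were NUC1 (0.99), ADE4 (0.97), MIX23 (0.96), MRX7 (0.94), SNR33 (0.94) and SLP1 (0.94). These r values describe 7 arrays that fall into 3 groups, and the genes share arrays, scaling and floor. After scaling to the 75th percentile, and likewise after quantile normalisation, 3 of the 6 were again among the 6 most alike, and 0 were with log2 of the value plus 16. NUC1, a mitochondrial nuclease, read 32.7 and 32.4 with galacturonic acid, 48.6 and 40.5 with galactose, and 8.4, 10.6 and 5.6 in control, below the floor. Among the members left out of that mean, r with it was 0.86 for GAL80, 0.66 for GAL3, 0.19 for PGM1, -0.41 for GAL4, -0.69 for PGM2 and -0.81 for UGP1.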

How the data were processed

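Groups came from the treatment label, and replicate numbers, given in deposit order, only name arrays. Per the labels' protocols, the authors hybridised biotin-labelled cRNA to one-colour Affymetrix yeast arrays. The deposited values are intensity values per probe set, processed with GCOS 1.2 per the submitters' processing notes, while no source used here names the signal algorithm or a genome build. Of 9335 probe sets, 6504 have 1 gene in the platform annotation, each found by gene ID in RefSeq's gene table (assembly R64). Each gene took its probe set with the highest mean. No 2 arrays shared more than 2.05% of values.

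Values were floored at 12 and taken as log2. All 7 arrays entered 1 linear model of 3 group means (R 4.3.3, limma 3.58.1, lmFit and trended eBayes), which left 4 residual degrees of freedom, with Benjamini-Hochberg adjustment over 5220 genes at 0.05. A run on simulated data placed changes only in genes well above the floor in control. It therefore does not cover genes below the floor in control, such as GAL1, GAL2, GAL7 and GAL10. Errors are standard errors of the fit to all 7 arrays. The labels do not say how cultures were started, so p-values measure the spread between these arrays after flooring. Flooring made the control values of GAL1, GAL2, GAL7 and GAL10 equal, which removed their control spread from the fit.

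The members and lists were chosen with earlier results of these data known. The rule for genes named outside the members took the Gal4 targets, list genes past the threshold and the 6 most like the GAL mean. Mating type markers, the ACT1 and SPT15 control probe sets and PEX19, picked after its value was seen, are named besides. Alternatives covered scaling, floor, filter, probe sets, array weights, arrays fitted, a replicate block and leaving out each array. No promoter or protein sequence was used here.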

Additional observations from a re-analysis of the deposited data

How the results depend on the processing

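Against control with galactose, the calls of GAL1, GAL2, GAL7 and GAL10 held under each alternative that tested them, leave-one-out fits included. Their galacturonic acid calls, and those of GAL2, GAL7 and GAL10 with galacturonic acid against galactose, held with quantile normalisation, 75th percentile scaling, log2 of the value plus 16, no filter, the mean of all probe sets and every probe set on its own. For galacturonic acid against control, the 4 members called became 1 with a floor of 50, 1 with the filter at the median level, which left 4 members tested, 7 with array weights (GAL3, GAL80 and PGM2 added) and 0 with the replicate block (6 at an unadjusted p under 0.05). The 121 genes called in all became 58 without a filter, 77 with the median filter, 774 with array weights, 256 with only the 2 groups compared and 1 with the block. For galactose against control, 1 member passed with the median filter, and the 473 genes called in all became 178 without a filter, 120 with the median filter, 16 with array weights, 38 with the 2 groups alone and 10 with the block. For galacturonic acid against galactose, the 3 members called became 1 with the median filter and 0 with array weights, with the 2 groups alone and with the block (3 at an unadjusted p under 0.05 in each), and the 686 genes called in all became 244, 153, 135, 0 and 7 in the order no filter, median filter, array weights, 2 groups alone and block. Outside the leave-one-out fits, GAL3 was called higher with galacturonic acid than with galactose in 1 of 10 alternatives (limma adjusted p = 0.0479). The fewer genes tested account for the members lost under the median filter, and the other causes were not tested. Leaving out each array in turn gave 0 to 4 members and 1 to 287 genes for galacturonic acid against control, 4 to 7 members and 21 to 2145 genes for galactose against control, and 0 to 5 members and 4 to 2327 genes for galacturonic acid against galactose. PGM1, which passed nowhere, turned its sign in galactose against control with quantile normalisation (-0.093), 75th percentile scaling (-0.085) and array weights (-0.079). Without single arrays it ranged from -0.036 to 0.46 for galacturonic acid against control, -0.21 to 0.38 for galactose against control and -0.10 to 0.45 for galacturonic acid against galactose. With a floor of 50, GAL4 was not tested and GAL3 lay at the floor on all galactose and control arrays, so that difference has no value. The block used deposit-order numbers that pair no samples. The alternatives for NRG2, SPT3, MED2, PGI1, TPS1 and the likeness ranking were chosen after seeing the data. Signals near the floor limit the differences of GAL3 and GAL4, and the number of arrays, 2 in each supplemented group and 3 in control, limits all differences.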
